A study of Mus musculus with 16 samples.

Results

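Resident Kupffer cells, the macrophages that live inside the blood sinusoids of the liver, were followed through 9 marker genes: Clec4f, Vsig4, Timd4, Cd5l, Marco, Folr2, Cd163, Adgre1 and Csf1r. The members were chosen by symbol, through the Ensembl identifier without its version. All 9 were found, once each, among the 78317 genes of the deposited tables, and all 9 passed the filter on low counts that left 14781 genes for testing. The libraries came from whole liver of C57BL/6J mice whose genotype is labelled wt, in 4 groups with 4 libraries each. Females and males ate either a normal chow diet, in which fat gave 4.5% of the calories, or a high fat diet, in which it gave 60%. The mice were obtained at an age of 6 weeks, and the diets lasted 10 weeks. The 2 diets came from separate suppliers, and components other than fat can differ between them. The tissue was powdered whole liver, in which macrophages are mixed with every other liver cell. In such bulk RNA, fewer Kupffer cells and less marker RNA per Kupffer cell cannot be told apart.

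Kupffer cells are seeded before birth and renew themselves locally. Their identity depends on signals from the neighbouring stellate, endothelial and parenchymal cells, among them the growth factor CSF1 and ligands of the TGF-beta and Notch families. They take up bacteria, aged red cells, modified lipoproteins and dead cells from portal blood. The markers carry out parts of that work. Clec4f is a C-type lectin that binds sugars on desialylated cells, and Vsig4 is a complement receptor for C3 fragments on blood-borne bacteria. Timd4 binds phosphatidylserine on dying cells, and Cd5l is a secreted protein that macrophages make under the control of the oxysterol receptors LXR. Marco is a scavenger receptor for bacteria and particles, Cd163 takes up haemoglobin bound to haptoglobin, and Folr2 is a folate receptor of tissue macrophages. Adgre1 encodes F4/80, a surface antigen of mouse macrophages at large, and Csf1r is the receptor for CSF1 and IL-34. The last 2 are shared with macrophages of other origin. Monocyte-derived macrophages that settle in the liver start without Timd4, and the Timd4-positive share of Kupffer cells is commonly used to follow the older resident cells.

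Total expected counts were between 22228115 and 41420589 per library. Where the members were counted, the lowest count was 106, for Timd4, and the highest was 6118, for Cd5l. In males on the high fat diet, replicates 2 and 3 were much closer to each other than any other pair within a group, with a chi-square statistic of 4.07 per gene against at least 20.8. They still differed by more than sampling noise and were kept as 2 libraries. Counts of called members and the ratio of Timd4 to Clec4f in males are also given with them averaged or left out. Correlations between genes were not recomputed in that way. The labels give replicate numbers and do not say in so many words that each library is a separate animal, so p-values measure the spread between these libraries.

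On the length-corrected TPM scale, the members spanned a more than 10-fold range of levels. Over all 16 libraries Cd5l averaged 82.0 ± 38.1 TPM (SD, n = 16), Clec4f 63.8 ± 23.3 TPM and Vsig4 37.3 ± 13.1 TPM. Next came Folr2 with 14.7 ± 5.95 TPM, Csf1r with 13.3 ± 4.51 TPM, Marco with 12.4 ± 11.9 TPM and Adgre1 with 9.46 ± 4.65 TPM (SD, n = 16). Timd4 averaged 6.13 ± 2.94 TPM and Cd163 6.00 ± 2.17 TPM (SD, n = 16). Within a library the upper part of this order was stable. Cd5l stood above Clec4f in 15 of 16 libraries, Clec4f above Vsig4 in 16 and Vsig4 above Folr2 in 16. Among the neighbours in the lower part only Adgre1 and Timd4 kept their order in all 16 libraries. Folr2 exceeded Csf1r in 10, Csf1r exceeded Marco in 11, Marco exceeded Adgre1 in 7 and Timd4 exceeded Cd163 in 5 libraries, so these neighbours were not separated beyond their spread. Marco was the most variable member, between 2.87 and 39.41 TPM.

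Clec4f, Vsig4 and Timd4, 3 members whose only window holds the hexamer GGAAGT, are shown with the 250 bases before their start sites. The windows of Cd163, Cd5l and Marco, which lack it, and the 2 of Folr2 are not shown. The sequences are from RefSeq on the mouse build GRCm38.p6, written 5′ to 3′ on the gene's strand, and capitals mark GGAAGT, the core bound by ETS factors such as PU.1, the macrophage factor encoded by Spi1. Clec4f lies at chr6:83656117-83656366 on the minus strand with the hexamer 33 bases before the start site, Vsig4 at chrX:96293439-96293688 on the minus strand with it 63 bases before, and Timd4 at chr11:46810549-46810798 on the plus strand with it 72 bases before.
Clec4f: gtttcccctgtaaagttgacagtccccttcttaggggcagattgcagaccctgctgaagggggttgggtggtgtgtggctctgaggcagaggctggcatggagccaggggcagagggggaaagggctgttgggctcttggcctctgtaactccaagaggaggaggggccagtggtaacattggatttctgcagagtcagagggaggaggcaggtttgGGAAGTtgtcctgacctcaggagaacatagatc
Vsig4: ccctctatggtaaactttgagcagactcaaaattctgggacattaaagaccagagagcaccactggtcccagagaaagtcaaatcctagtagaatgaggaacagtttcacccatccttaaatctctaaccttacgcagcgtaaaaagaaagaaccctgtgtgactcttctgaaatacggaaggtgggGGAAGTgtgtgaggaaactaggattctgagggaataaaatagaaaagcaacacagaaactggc
Timd4: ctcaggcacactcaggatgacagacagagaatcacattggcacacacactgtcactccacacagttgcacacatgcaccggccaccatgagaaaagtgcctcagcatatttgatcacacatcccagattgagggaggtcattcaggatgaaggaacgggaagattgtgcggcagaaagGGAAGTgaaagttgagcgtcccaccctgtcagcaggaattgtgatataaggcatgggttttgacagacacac
RefSeq windows were found for 7 of the 9 members, 8 windows in all because Folr2 has 2; Adgre1 and Csf1r were not matched. On both strands, GGAAGT was found in 4 of the 8 member windows (those of Clec4f, Vsig4 and Timd4 and 1 of Folr2) and in 19.7% of 32851 windows of the same length. In all, 7 motifs were searched on both strands. GAGGAA was in 3 member windows (Cd5l, Marco and Vsig4) and 23.3% of all windows, and GAGGAAGT, which contains and overlaps both hexamers, in 0 and 2.44%. TGCTGAC, part of the site bound by MAF factors, was in 1 (Timd4) and 3.81%. The pattern TTGCNNAA, bound by C/EBP factors, was in 0 and 9.56%, and TCACGTG or TCATGTG, bound by MITF and TFE factors, was in 0 and 6.28%. The E-box CANNTG was in 5 windows, of Cd163, Cd5l, Timd4 and both of Folr2, and in 66.2% of all. These matches describe letters in a window and were not tested for binding. The bases just after the start site were found in an annotated transcript of Clec4f and of Vsig4, but not of Timd4. The distance given for Timd4 thus rests on the RefSeq start site alone.

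**Figure D1:**
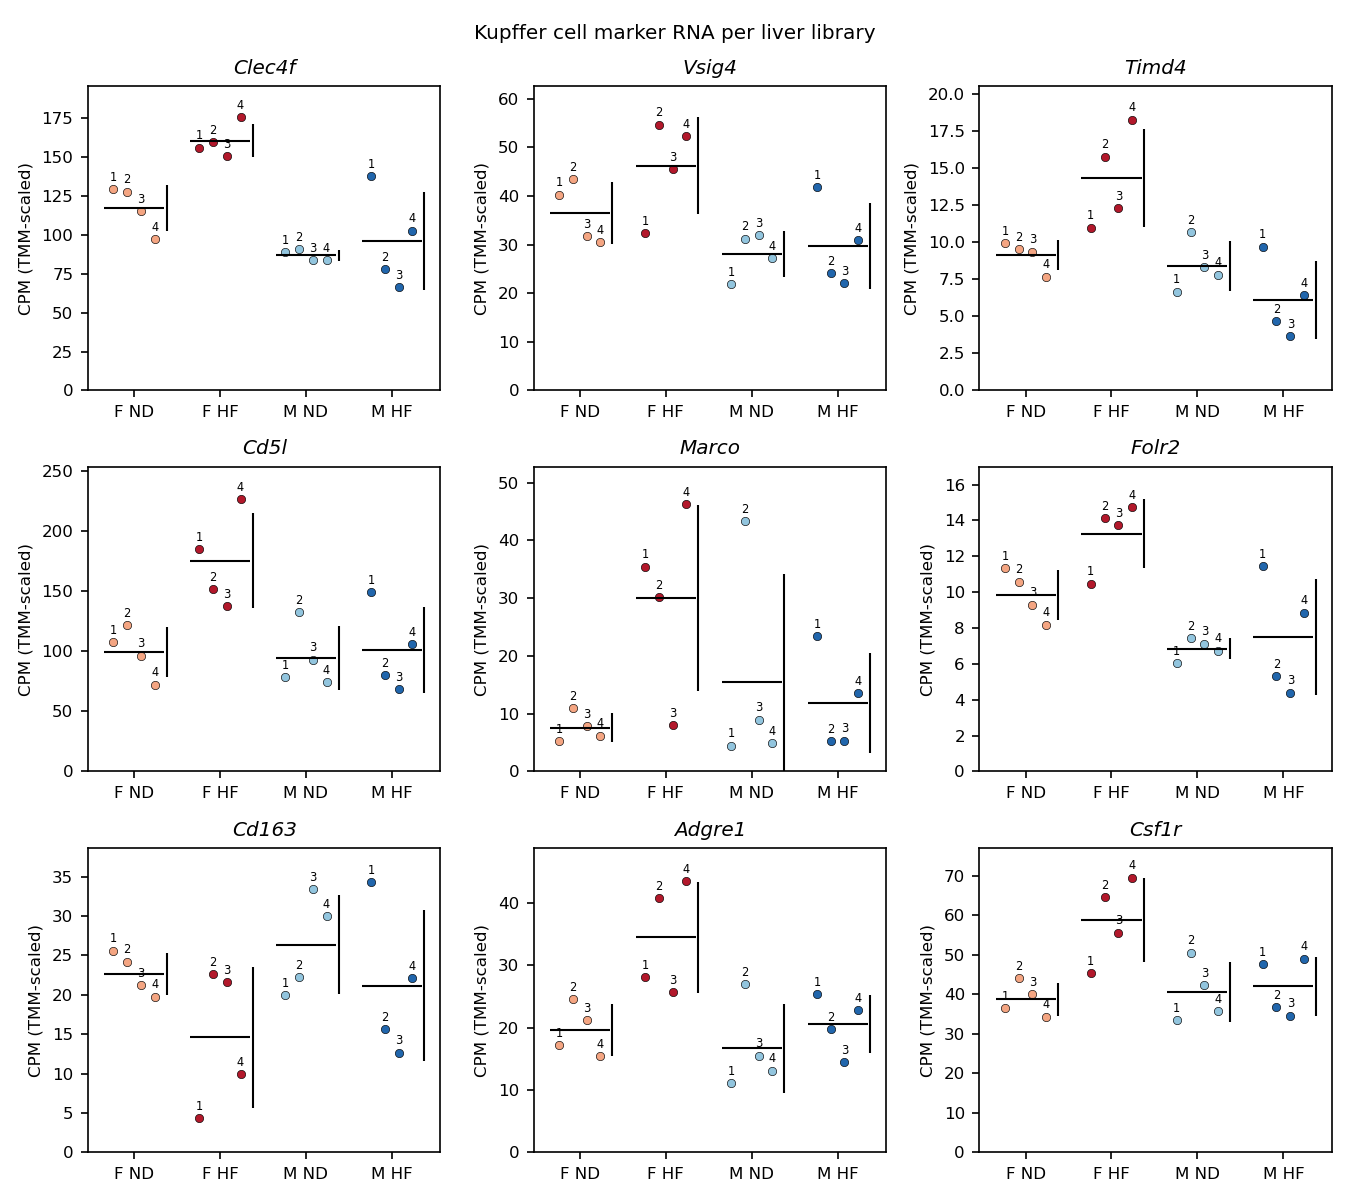
CPM (vertical axis, counts relative to the scaled library size) of the 9 markers in each of the 16 libraries, with the group mean (line) and 1 SD (bar, n = 4, drawn down to 0 at most); F and M are females and males, ND and HF the normal and high fat diet, and digits are replicate numbers. Females on the high fat diet lie above females on the normal diet without overlap for Clec4f, Timd4, Cd5l, Adgre1 and Csf1r, and male replicates 1 and 4 on the high fat diet lie above replicates 2 and 3 for every marker.

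In females, the question was how 10 weeks of high fat diet moved the markers. Cd5l and Csf1r rose, 1.76-fold and 1.52-fold. Clec4f, Timd4 and Adgre1 were higher in all 4 high fat libraries than in all 4 normal diet libraries, without passing the test. Cd163 was the 1 member with a lower mean on the high fat diet. Values are CPM, which are counts relative to the scaled library size, in the order of replicates 1 to 4.

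Cd5l measured 107, 122, 96.4 and 72.3 CPM in females on the normal diet (mean 99.4 ± 20.9, SD, n = 4) and 185, 152, 138 and 227 CPM on the high fat diet (mean 175 ± 39.5, SD, n = 4). All 4 high fat libraries lay above all 4 others, and replicate 4, the lowest on the normal diet, was by its number the highest on the high fat diet. On the log2 scale Cd5l rose by 0.82 ± 0.25 (SE), and edgeR's quasi-likelihood test gave an adjusted p of 0.0421 (Benjamini-Hochberg method, over all tested genes). Csf1r, whose protein passes on the CSF1 signal, measured 36.5, 44.0, 40.0 and 34.3 CPM on the normal diet and 45.4, 64.5, 55.6 and 69.5 CPM on the high fat diet. Its groups did not overlap either, and the change was 0.60 ± 0.16 on the log2 scale (SE, edgeR adjusted p = 0.0183).

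The lectin Clec4f measured 129, 128, 115 and 97.4 CPM on the normal diet and 156, 160, 151 and 176 CPM on the high fat diet. The gap between the groups was complete but the step was small, 0.45 ± 0.17 on the log2 scale (SE, edgeR adjusted p = 0.0837). Timd4, the receptor for dying cells, measured 9.93, 9.53, 9.37 and 7.68 CPM on the normal diet and 11.0, 15.8, 12.3 and 18.3 CPM on the high fat diet. Its normal diet libraries were tight and its high fat libraries spread widely, with a log2 fold change of 0.65 ± 0.24 (SE, edgeR adjusted p = 0.0823). Adgre1 measured 17.2, 24.6, 21.3 and 15.4 CPM on the normal diet and 28.1, 40.8, 25.7 and 43.5 CPM on the high fat diet, a log2 fold change of 0.82 ± 0.26 (SE, edgeR adjusted p = 0.0556).

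The scavenger receptors had the widest spread. Marco measured 5.19, 11.0, 7.87 and 6.21 CPM in females on the normal diet and 35.5, 30.2, 8.0 and 46.3 CPM on the high fat diet. Of the high fat libraries, 3 stood well above the normal diet group, and replicate 3 lay within it. The log2 fold change of 1.99 ± 0.79 (SE) had an edgeR adjusted p of 0.123. Cd163 went the other way in its mean, with 25.6, 24.2, 21.2 and 19.8 CPM on the normal diet and 4.38, 22.6, 21.6 and 9.89 CPM on the high fat diet. The low mean came from replicates 1 and 4, the same libraries in which Cd5l and Marco were highest, and the log2 fold change was -0.64 ± 0.43 (SE, edgeR adjusted p = 0.364). Vsig4 (0.34 ± 0.20, SE, adjusted p = 0.285) and Folr2 (0.43 ± 0.22, SE, adjusted p = 0.217) overlapped between the diets and did not pass edgeR's test.

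Of the 9 members, 2 were called in females, both higher, where 11.5% of all tested genes were called and 5.74% were called higher. All 4 high fat libraries lay above all 4 normal diet libraries for 5 of 9 members, against 8.71% of all tested genes (18.3% when either direction counts). At an unadjusted p under 0.05 there were 6 members, and the median log2 fold change was 0.60 over the members against 0.00 over all tested genes. The count of 2 changed with single libraries, and so did the share of all tested genes called. The count became 0 without replicate 4 of females on the normal diet (7.11% of all called) or on the high fat diet (6.29%). It was 1 (Csf1r, with Cd5l lost) without normal diet replicate 1 (6.77%) or 3 (8.97%) or high fat diet replicate 1 (8.81%). It was 5 in DESeq2 (15.7%), in limma on log2(TPM + 1) (19.8%), and when only the groups compared were fitted (10.3%). Of the 15 alternatives run, 8 called Cd5l and 13 called Csf1r.

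In males the same diet left 0 of 9 members called, where 11.4% of all tested genes were called. At an unadjusted p under 0.05 the count was also 0, and DESeq2 called 0. No member had groups without overlap, where 18.5% of all tested genes did. The members' median log2 fold change was 0.08, with 6 of 9 above 0, and its sign depended on single libraries. It was -0.16, with 1 of 9 above 0, without high fat diet replicate 1, -0.025 without normal diet replicate 1 and -0.0096 without normal diet replicate 4. It was 0.17 without normal diet replicate 2 or high fat diet replicate 2, 0.20 without high fat diet replicate 3, and 0.041 without high fat diet replicate 4. With high fat diet replicates 2 and 3 both left out it was 0.37, with 8 of 9 above 0 and 1 member called (Clec4f). In that fit 7.61% of all tested genes were called. The high fat males were split inside their group, with 2 libraries high and 2 low.

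Clec4f measured 88.7, 90.6, 83.7 and 83.9 CPM in normal diet males, a tight group, and 138, 77.9, 66.2 and 103 CPM on the high fat diet. Replicates 1 and 4 lay above the normal diet group and replicates 2 and 3 below it, and the change was 0.15 ± 0.17 on the log2 scale (SE, edgeR adjusted p = 0.603). Timd4 measured 6.67, 10.7, 8.34 and 7.82 CPM on the normal diet and 9.70, 4.68, 3.64 and 6.42 CPM on the high fat diet. Of the high fat libraries, 3 lay below the lowest normal diet library and replicate 1 lay inside the normal diet range, and the log2 fold change was -0.46 ± 0.24 (SE, edgeR adjusted p = 0.229). Without replicate 1 of the high fat males it passed, with an edgeR adjusted p of 0.0211, the 1 alternative of 17 that called it. Leaving out the 1 library inside the normal diet range set the groups apart, so that p does not test the diet. Cd5l measured 78.6, 132, 93.2 and 74.2 CPM on the normal diet and 149, 80.05, 68.5 and 106 CPM on the high fat diet, so that its groups lay over each other (0.09 ± 0.25, SE, edgeR adjusted p = 0.847).

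Folr2 repeated the pattern of Clec4f, with 6.05, 7.42, 7.13 and 6.74 CPM on the normal diet and 11.4, 5.33, 4.40 and 8.85 CPM on the high fat diet. Vsig4 measured 21.8, 31.2, 32.0 and 27.2 CPM on the normal diet and 41.8, 24.2, 22.1 and 30.9 CPM on the high fat diet. Both had the high fat libraries on either side of the normal diet mean. Cd163 measured 19.9, 22.2, 33.4 and 29.9 CPM on the normal diet and 34.3, 15.6, 12.6 and 22.1 CPM on the high fat diet. Adgre1 measured 11.2, 27.0, 15.5 and 13.1 CPM on the normal diet and 25.3, 19.7, 14.4 and 22.8 CPM on the high fat diet. Csf1r measured 33.5, 50.5, 42.3 and 35.8 CPM on the normal diet and 47.6, 36.7, 34.6 and 49.1 CPM on the high fat diet. In each of these genes replicates 1 and 4 were the higher libraries on the high fat diet, and replicate 2 was the highest on the normal diet for Adgre1 and Csf1r. Marco measured 4.49, 43.3, 8.94 and 4.90 CPM on the normal diet and 23.4, 5.19, 5.33 and 13.6 CPM on the high fat diet, and the single library at 43.3 CPM set the mean of its group. These 6 genes had log2 fold changes between -0.39 (Marco) and 0.30 (Adgre1), with edgeR adjusted p between 0.507 and 0.872.

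**Figure D2:**
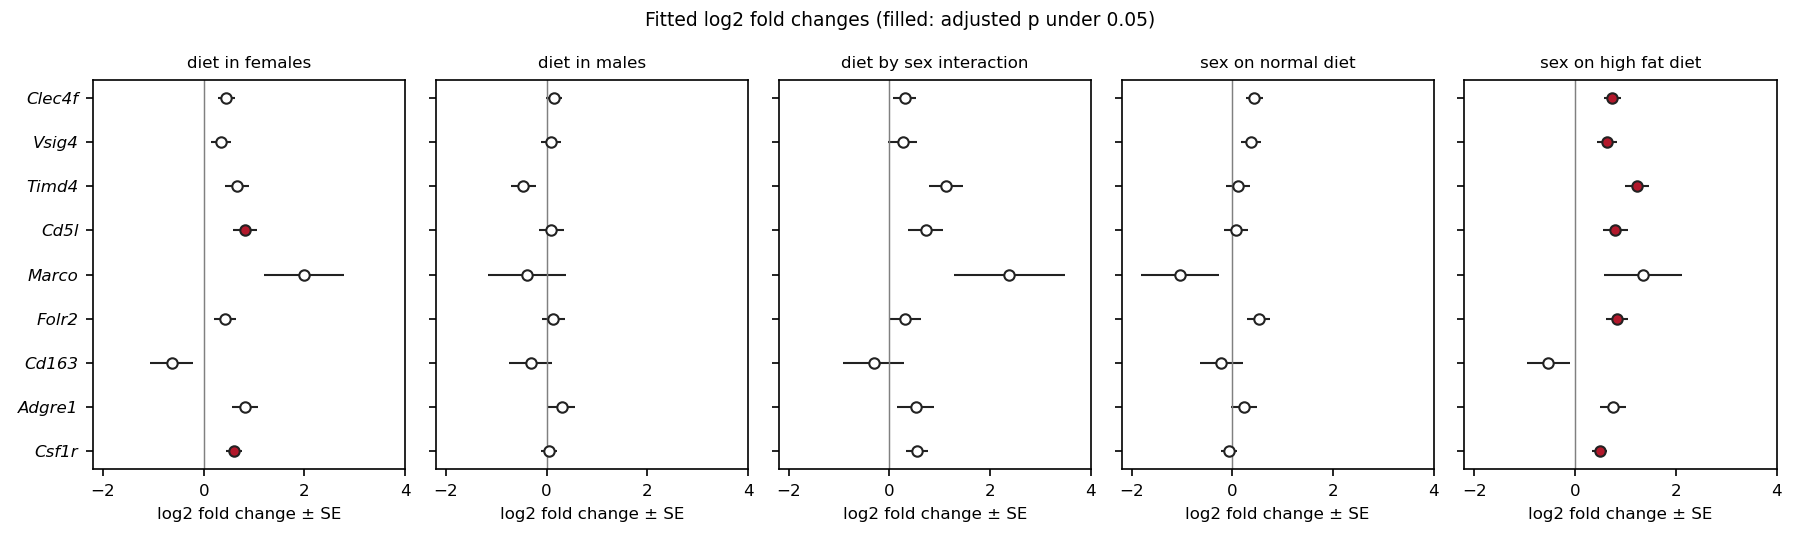
Fitted log2 fold change (horizontal axis, with 1 SE) of each marker in the 5 contrasts: high fat against normal diet in females and in males, the difference of these changes (females minus males), and the sexes compared within each diet. Filled points have an adjusted p under 0.05: Cd5l and Csf1r for diet in females, and Clec4f, Vsig4, Timd4, Cd5l, Folr2 and Csf1r for sex on the high fat diet.

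Whether the diet moved a marker differently in the sexes was asked of the difference itself. Timd4 came closest, with means going from 9.13 to 14.3 CPM in females and from 8.38 to 6.11 CPM in males. Its difference of log2 changes, females minus males, was 1.11 ± 0.34 (SE, edgeR adjusted p = 0.158). Of the 9 members 0 were called, where 0.677% of all tested genes were, while 3 had an unadjusted p under 0.05 and DESeq2 called 0. Timd4 passed without replicate 1 of males on the high fat diet, with an edgeR adjusted p of 0.0166, the 1 alternative of 24 that called it. That is the 1 high fat male library inside the normal diet range, so leaving it out does not test the difference. With all libraries in, the difference was above 0 for 8 of 9 members, the exception being Cd163 (-0.32 ± 0.60, SE), and the members' median was 0.52. With male high fat diet replicates 2 and 3 both left out the difference was above 0 for 5 of 9 members, with a median of 0.29, and without male normal diet replicate 2 the median was 0.30.

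Females and males were then compared on each diet. On the high fat diet females had more RNA of Clec4f, Vsig4, Timd4, Cd5l, Folr2 and Csf1r than males. Timd4 had the largest of these differences, 2.35-fold, with all 4 female libraries (11.0 to 18.3 CPM) above all 4 male libraries (3.64 to 9.70 CPM). Clec4f was 1.67-fold higher, with females between 151 and 176 CPM and males between 66.2 and 138 CPM. On the normal diet the sexes were closer.

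On the high fat diet the log2 difference, females minus males, was 1.23 ± 0.24 for Timd4 (SE, edgeR adjusted p = 0.00226) and 0.74 ± 0.17 for Clec4f (SE, edgeR adjusted p = 0.00501). Folr2, the folate receptor, was 0.82 ± 0.22 higher in females (SE, edgeR adjusted p = 0.0154), with 10.5, 14.1, 13.7 and 14.8 CPM in females. Male replicate 1, at 11.4 CPM, was the 1 male library inside the female range. Vsig4 measured 32.4, 54.7, 45.5 and 52.3 CPM in females and overlapped with the males through female replicate 1 and male replicate 1 (0.64 ± 0.20, SE, edgeR adjusted p = 0.0336). Cd5l (0.80 ± 0.25, SE, adjusted p = 0.0318) and Csf1r (0.48 ± 0.16, SE, adjusted p = 0.0343) also passed edgeR's test. Adgre1 was 0.75 ± 0.26 higher without overlap but did not pass (SE, edgeR adjusted p = 0.0554), and neither did Marco (1.34 ± 0.77, SE) or Cd163 (-0.53 ± 0.43, SE).

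The sex comparison on the high fat diet thus called 6 of 9 members, all higher in females, where 20.4% of all tested genes were called and 8.84% were called higher in females. All female libraries lay above all male libraries for 3 members (Clec4f, Timd4 and Adgre1), against 10.3% of all tested genes (22.7% in either direction). The median difference was 0.75, and 0.42 with male replicates 2 and 3 both left out. Much of the count rested on the 2 close male libraries and on 1 female library. It was 3 (Clec4f, Timd4 and Folr2) without female replicate 4, without male replicate 2 or without male replicate 3, and the same 3 with male replicates 2 and 3 averaged. With both left out it was 2, Clec4f and Timd4, and it was 3 when only the groups compared were fitted. The shares of all tested genes called in these 6 fits, in that order, were 14.5%, 16.8%, 17.5%, 17.2%, 17.4% and 13.8%. Clec4f and Timd4 were called in all 17 alternatives run.

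On the normal diet 0 of 9 members were called between the sexes, where 15.7% of all tested genes were. At an unadjusted p under 0.05 there were 2, and DESeq2 called 0. Clec4f (0.44 ± 0.17, SE, adjusted p = 0.0793) and Folr2 (0.52 ± 0.22, SE, adjusted p = 0.12) were higher in females without overlap but did not pass edgeR's test. Folr2 measured 11.3, 10.6, 9.29 and 8.18 CPM in females against a male maximum of 7.42 CPM. Groups without overlap were found for 2 of 9 members and for 22.0% of all tested genes. Both genes passed when only the groups compared were fitted, a fit in which 19.3% of all tested genes were called.

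The members moved together from library to library within the groups. In males on the high fat diet, replicates 1 and 4 were both above replicates 2 and 3 for 9 of 9 members, a split that 28.7% of all tested genes had, with a median log2 ratio of 0.76 over the members. Replicate 1 was the highest for 8 members and replicate 3 the lowest for 8. The same libraries differed in hepatocyte genes: the summed level of 5 markers of hepatocytes, the parenchymal cells of the liver, was 37981 and 38781 TPM in replicates 1 and 4 and 51451 and 51894 TPM in replicates 2 and 3. The complement gene C6, another Kupffer identity gene that hepatocytes also express, followed the same split, with 446 and 489 against 144 and 145 CPM. The part of these shifts in the members' split was not tested. Elsewhere, replicate 4 was the highest of females on the high fat diet for 7 members and the lowest of females on the normal diet for 8. Replicate 2 was the highest of males on the normal diet for 7 members.

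**Figure D3:**
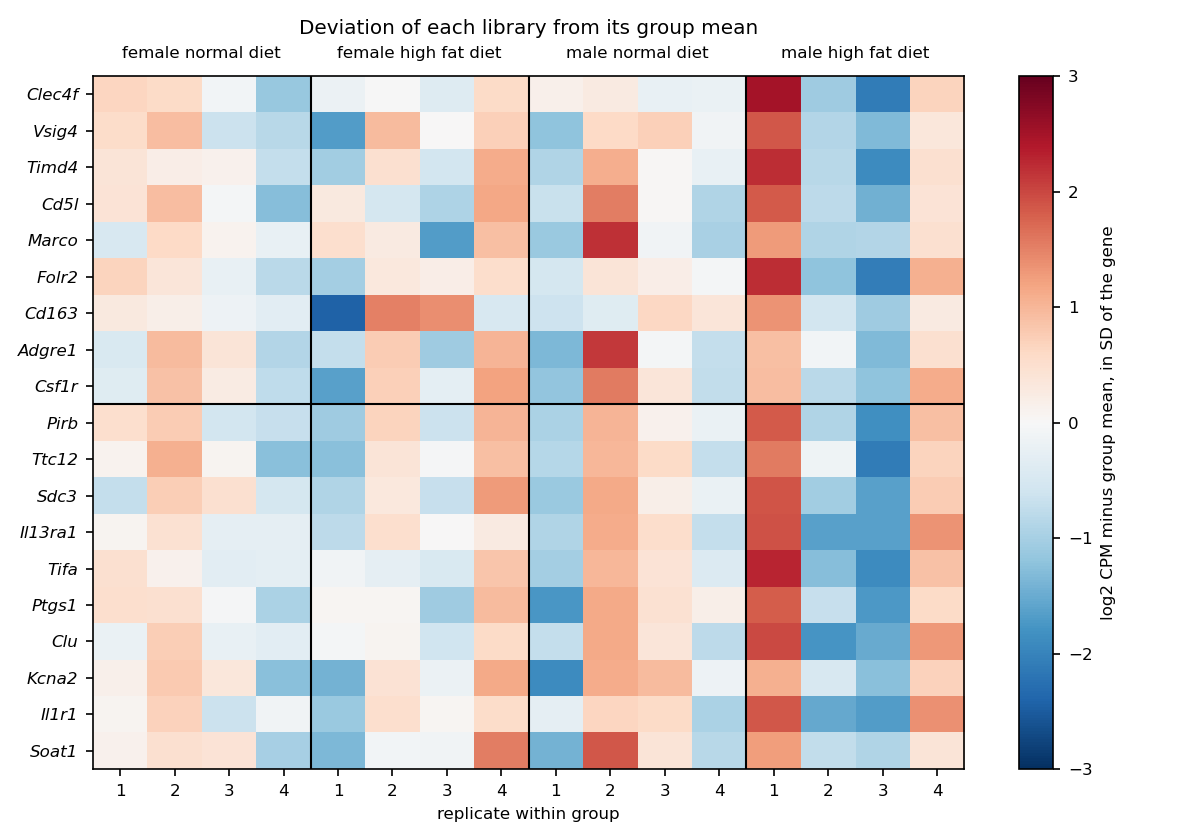
Heat map of the deviation of log2 CPM from the group mean, in SD of the gene (colour, red above and blue below), for the 9 markers (upper rows) and the 10 genes most like them (lower rows) in the 16 libraries (columns, by group and replicate). In males on the high fat diet replicate 1 is above and replicates 2 and 3 are below the group mean for every marker. Replicate 2 is only just below it for Adgre1 (-0.083 SD). Cd163 departs from the others in females on the high fat diet.

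With each gene centred within its group, the likeness of every member to the mean of the other 8 was described by a correlation over the 16 libraries, which share depth and tissue composition and carry no test. The correlations include the split of the high fat males, which 28.7% of all tested genes had. They were not recomputed with male replicates 2 and 3 averaged or left out. Timd4 was closest to the rest, with a Pearson r of 0.97 (Spearman rho 0.96). Folr2 (r 0.89), Vsig4 (r 0.89) and Csf1r (r 0.88) followed, then Cd5l (r 0.82), Clec4f (r 0.81) and Adgre1 (r 0.81). Marco (r 0.68) and Cd163 (r 0.45) were the loosest. Over the 36 pairs of members r ran from -0.05 to 0.92 with a median of 0.73. The 8 pairs with Cd163 had a median of 0.47, and the 28 pairs without it 0.77. The scavenger receptor for haemoglobin was the member least tied to the rest.

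Among all tested genes outside the list, those most like the mean of the members by the same measure were Pirb (r 0.98, rho 0.99), an inhibitory receptor of myeloid cells, Ttc12 (r 0.94, rho 0.97) and Sdc3 (r 0.94, rho 0.92). Il13ra1 (r 0.92), Tifa (r 0.91), Ptgs1 (r 0.89), Clu (r 0.89), Kcna2 (r 0.89), Il1r1 (r 0.89) and Soat1 (r 0.88) completed the first 10. Kcna2 was also on the list of other Kupffer identity genes. This ranking, too, was made with the split of the high fat males included.

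A ratio of markers within a library does not move with the scaling of the library. The ratio of Timd4 to Clec4f, in TPM, was 0.0873, 0.137, 0.115 and 0.108 in males on the normal diet (mean 0.112 ± 0.0206, SD, n = 4) and 0.0816, 0.0697, 0.0638 and 0.0724 in males on the high fat diet (mean 0.0719 ± 0.00742, SD, n = 4). All 4 high fat libraries lay below all 4 others, including replicates 1 and 4, in which Clec4f was above the normal diet group. The ratio was 0.648-fold as large on the high fat diet (log2 difference -0.63, exact two-sided permutation p = 0.0286, the smallest that 4 against 4 can give). Adjusted over the 4 ratio tests the p was 0.114, and with male replicates 2 and 3 averaged the log2 difference was -0.59 (exact permutation p = 0.0571). The exact permutation p was also 0.0571 without any 1 of the 4 high fat libraries.

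In females the same ratio was 0.0891, 0.0866, 0.0944 and 0.0914 on the normal diet and 0.0817, 0.114, 0.0948 and 0.121 on the high fat diet. The groups overlapped, through replicate 1 on the high fat diet (log2 difference 0.17, exact two-sided permutation p = 0.286). Without that library the log2 difference was 0.28 (exact permutation p = 0.0286, the smallest that 3 against 4 can give). Leaving out the 1 overlapping library fixed that p, so it does not test the diet. The difference between the sexes in this ratio's change was not tested. The ratio of Clec4f to Adgre1, the resident marker over the pan-macrophage antigen, averaged 8.27 ± 1.44 on the normal diet and 6.54 ± 1.36 on the high fat diet in females (SD, n = 4), and 7.81 ± 2.59 and 6.24 ± 0.826 in males (SD, n = 4). The groups overlapped in both sexes, with exact two-sided permutation p-values of 0.171 and 0.343.

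**Figure D4:**
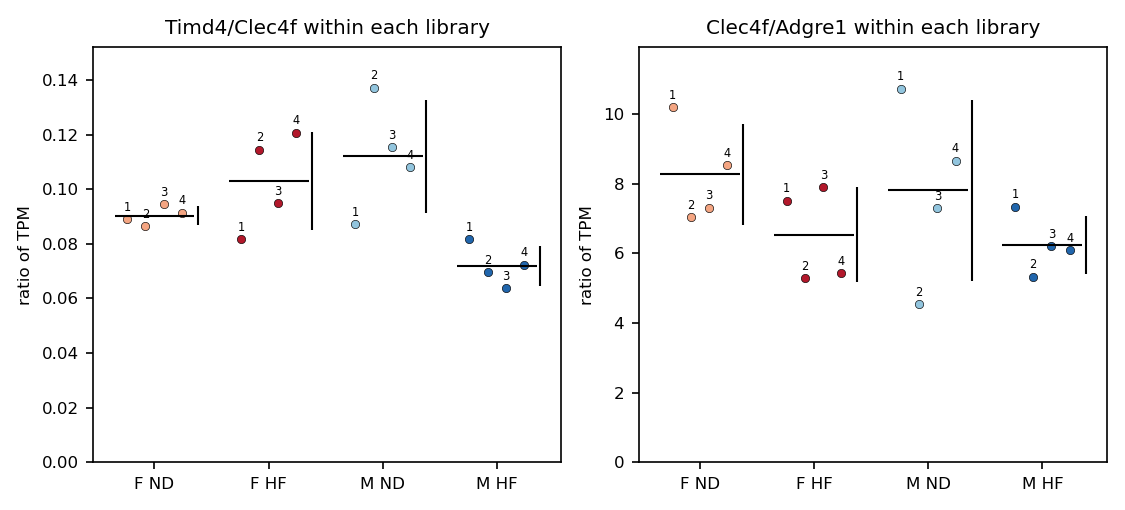
Ratio of Timd4 to Clec4f (left) and of Clec4f to Adgre1 (right) in TPM within each library (vertical axis from 0), with the group mean (line) and 1 SD (bar, n = 4); digits are replicate numbers. The 4 males on the high fat diet have Timd4/Clec4f ratios between 0.0638 and 0.0816, below all 4 males on the normal diet.

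Other genes of the same cells gave a mixed picture. For scale, 11.5% of all tested genes were called for diet in females and 11.4% in males. Of 12 further genes tied to Kupffer identity, 3 rose in females on the high fat diet and none fell (median log2 fold change 0.48). They were Fabp7, a fatty acid binding protein, with 2.87 against 5.68 CPM (0.98 ± 0.25, SE, edgeR adjusted p = 0.0163), the regulator Id3 with 14.3 against 25.0 CPM (0.81 ± 0.23, SE, edgeR adjusted p = 0.0308) and the potassium channel Kcna2 (0.86 ± 0.25, SE, edgeR adjusted p = 0.0334). In males 2 of the 12 rose, Fabp7 (1.06 ± 0.26, SE, adjusted p = 0.0129) and Id3 (0.78 ± 0.23, SE, adjusted p = 0.0343) in edgeR's test, with a list median of 0.08. Leaving out single libraries gave 1 to 4 of these genes in females and 1 to 2 in males. The count of 3 in females became 1 without normal diet replicate 3 or 4 or high fat diet replicate 4, and 1 of the 2 was lost in males without normal diet replicate 2 or 4 or high fat diet replicate 2, 3 or 4.

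The signals that sustain Kupffer cells were led by Csf1, the growth factor for Csf1r. It measured 7.34, 7.08, 9.55 and 8.66 CPM in females on the normal diet and 15.8, 13.0, 13.6 and 15.5 CPM on the high fat diet, and 6.63, 6.31, 8.77 and 6.90 CPM against 10.3, 9.47, 9.24 and 12.7 CPM in males. All high fat libraries lay above all normal diet libraries in both sexes, and Csf1 rose by 0.83 ± 0.14 in females (SE, edgeR adjusted p = 0.00119) and by 0.55 ± 0.14 in males (SE, edgeR adjusted p = 0.0182). In males this call was lost without normal diet replicate 1 or 2 or without high fat diet replicate 4. Il34, the other ligand of the receptor, had lower means on the high fat diet without passing the test in females (-0.45 ± 0.30, SE, edgeR adjusted p = 0.342) or males (-0.45 ± 0.31, SE, edgeR adjusted p = 0.369). Tgfb1 also rose in females (0.64 ± 0.16, SE, edgeR adjusted p = 0.0158). With Csf1 that made 2 of 10 niche genes in females and 1 of 10 in males, and 1 in females without normal diet replicate 1. Over all tested genes 11.5% were called in females and 11.4% in males, so the male count was near that share.

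Of 15 genes of macrophages at large 6 rose in females on the high fat diet (median 0.75), among them the lysosomal protein Cd68 with 8.24 against 15.4 CPM (0.90 ± 0.16, SE, edgeR adjusted p = 0.00193), the signalling adaptor Tyrobp (1.05 ± 0.24, SE, edgeR adjusted p = 0.0091) and the pan-leukocyte phosphatase Ptprc (0.98 ± 0.20, SE, edgeR adjusted p = 0.00543). The count of 6 became 3 without normal diet replicate 1, 3 or 4 or high fat diet replicate 1 or 4, and 11 without high fat diet replicate 3. In males 2 rose, Cd68 (0.63 ± 0.16, SE, edgeR adjusted p = 0.0183) and Spi1 (0.94 ± 0.29, SE, edgeR adjusted p = 0.0397), a count that became 0 without normal diet replicate 1 or high fat diet replicate 4 and 1 without normal diet replicate 3 or 4 or high fat diet replicate 1. With high fat diet replicates 2 and 3 of the males both left out it was 4. Of all tested genes, 11.5% were called for diet in females and 11.4% in males. Between the sexes on the high fat diet 9 of the 15 were higher in females (median 0.73). By p the first were Tyrobp (1.36, edgeR adjusted p = 0.00101) and the complement gene C1qa (0.91, edgeR adjusted p = 0.00382), and by size the largest difference was that of Cd74 (1.46, edgeR adjusted p = 0.0144). That count was 6 without female replicate 4 and 1 with male replicates 2 and 3 both left out. Of all tested genes, 20.4% were called in this comparison, and 8.84% were called higher in females. On the normal diet 0 of the 15 were called in edgeR, 3 had an unadjusted p under 0.05 and DESeq2 called 1. There edgeR called 15.7% of all tested genes.

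Of 10 markers of recruited and lipid-associated macrophages, 6 rose with the high fat diet in females and 5 in males, where 1 fell. The risers in females (list median 1.55) included Ccr2, the chemokine receptor of monocytes, from 1.56 to 4.32 CPM (1.46 ± 0.31, SE, edgeR adjusted p = 0.00662), and the glycoprotein Gpnmb (3.47 ± 0.84, SE, edgeR adjusted p = 0.0156). Those in males (list median 1.39) included Ccr2 (1.72 ± 0.32, SE, edgeR adjusted p = 0.00231) and the lipid receptor Trem2 (1.57, edgeR adjusted p = 0.0403), and the gene that fell was the tetraspanin Cd9, by 0.99 (edgeR adjusted p = 0.00913). The call of Gpnmb in females was lost without normal diet replicate 1 or 4, and that of Trem2 without any 1 of the male libraries except high fat diet replicate 2. Cd9 was not called with male replicates 2 and 3 both left out. The 6 calls in females became 2 to 4 without any 1 of the normal diet replicates or without high fat diet replicate 1 or 4. The 5 risers in males became 3 without normal diet replicate 1 or 3 or high fat diet replicate 4. Of 6 scavenger receptors outside the members, 0 were called in females by edgeR and by DESeq2, and 2 had an unadjusted p under 0.05. In males 2 rose, the fatty acid transporter Cd36 (1.66 ± 0.24, SE, edgeR adjusted p = 0.000326) and the lipoprotein receptor Scarb1 (0.43, edgeR adjusted p = 0.0258). That count was 1 without normal diet replicate 1, 3 or 4, without high fat diet replicate 2 or 3, and with those last 2 averaged. Beside both lists, 11.5% of all tested genes were called for diet in females and 11.4% in males.

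**Figure D5:**
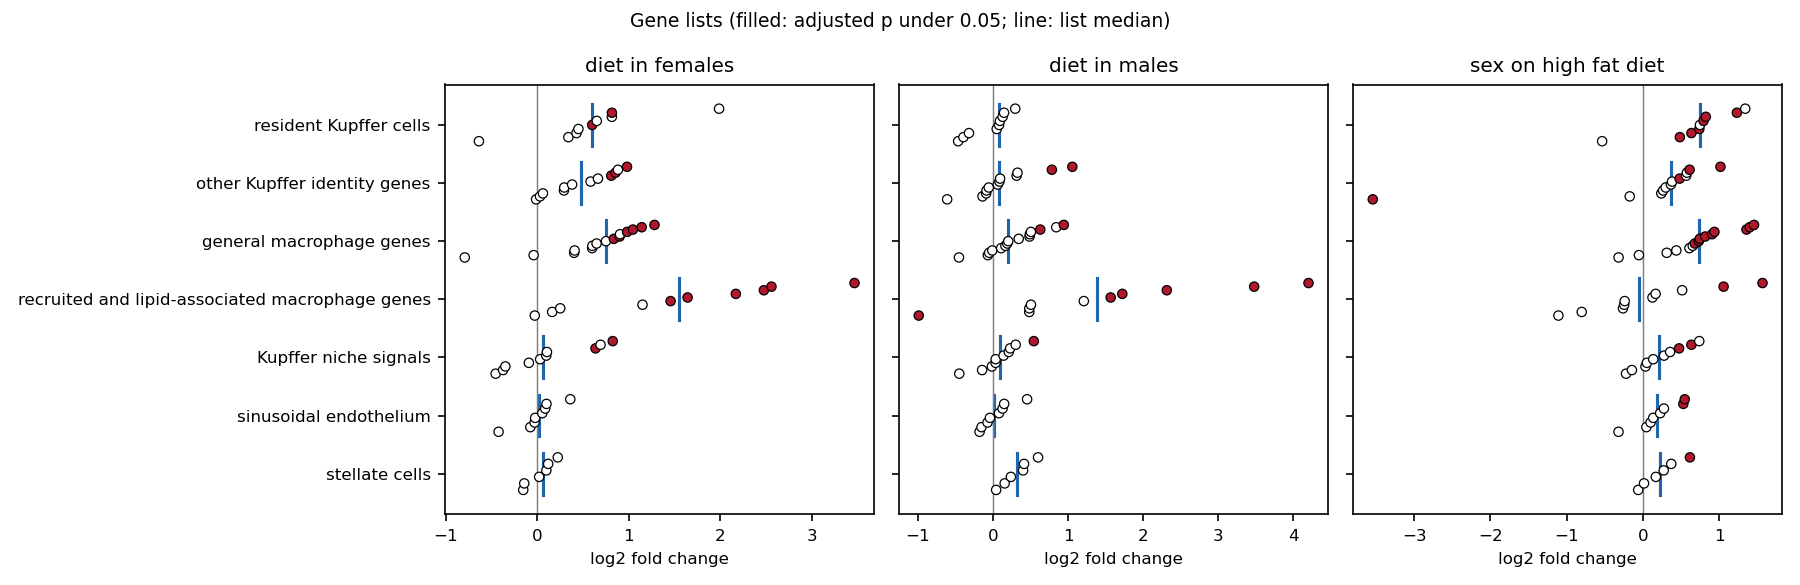
Log2 fold change (horizontal axis) of each tested gene of 7 lists, 1 point per gene, with the list median (line), for diet in females, diet in males and females against males on the high fat diet. Filled points have an adjusted p under 0.05. Recruited and lipid-associated macrophage genes have 6 and 5 risers with the diet in females and males, and the 9 resident markers have 2 and 0. Over all tested genes 11.5% and 11.4% were called, in either direction.

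Markers of the other liver cells were read beside these results. The summed level of 8 genes of the sinusoidal endothelium, whose wall Kupffer cells sit in, was between 116.3 and 142.7 TPM in females on the normal diet and between 133 and 167.2 TPM on the high fat diet. Their median log2 fold change with diet was 0.02 in both sexes, and edgeR and DESeq2 called 0 of the 8 in either sex, with 2 in females and 1 in males at an unadjusted p under 0.05. Between the sexes on the high fat diet 2 of the 8 were higher in females, Clec4g (0.55, edgeR adjusted p = 0.000949) and Dnase1l3 (0.53, edgeR adjusted p = 0.00457). That comparison called 20.4% of all tested genes. Genes of neutrophils, with 3 of 5 tested, summed to between 2.36 and 3.86 TPM in females on the normal diet and, without overlap, to between 6.87 and 19.79 TPM on the high fat diet. S100a8 (2.51 ± 0.74, SE, adjusted p = 0.0343) and Csf3r (1.13 ± 0.35, SE, adjusted p = 0.044) were called higher there by edgeR. S100a8 was not called without any 1 of the normal diet libraries or without high fat diet replicate 1, and Csf3r was not called without normal diet replicate 2, 3 or 4 or high fat diet replicate 1, 2 or 4. In males the neutrophil sum ran from 0.96 to 21.59 TPM and from 10.64 to 26.45 TPM. Genes of T and B cells summed to between 1.41 and 2.04 TPM in females on the normal diet and, without overlap, to between 2.21 and 4.94 TPM on the high fat diet, and to at most 1.70 TPM in males. Of their 4 tested genes 0 were called for diet by edgeR or DESeq2 in either sex, and 0 had an unadjusted p under 0.05. Cd79a of B cells and S100a8 and Cxcr2 of neutrophils were at 0 in some libraries. TPM sums without overlap in females were not limited to these lists. The 6 stellate cell genes summed to at most 261.9 TPM with chow and at least 272.1 TPM with high fat. Their median log2 fold change was 0.06, and edgeR called 0. For this contrast the median over all tested genes was 0.15 in log2(TPM + 1) and 0.00 in edgeR. Whether the neutrophil and lymphocyte sums rose beyond that shift was not tested.

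Of the 5 hepatocyte genes 2 were lower on the high fat diet in females and 3 in males. The shares of all tested genes called were 11.5% and 11.4%. The tyrosine aminotransferase gene Tat fell by 1.81 in females (edgeR adjusted p = 1.63e-05) and by 1.42 in males (edgeR adjusted p = 0.000125), and the regulator Hnf4a fell by 0.60 and by 0.47 (edgeR adjusted p = 0.00331 and 0.0139). Albumin (Alb) fell by 0.50 in males (edgeR adjusted p = 0.0303), a call lost without normal diet replicate 1, 2 or 3 or high fat diet replicate 1 or 4, as was that of Hnf4a in males without normal diet replicate 3. Hnf4a was not called on log2(TPM + 1) in either sex. The summed hepatocyte level ran from 67514 to 79479 TPM in females on the normal diet and from 65054 to 80947 TPM on the high fat diet. In males it ran from 54478 to 64845 TPM and, without overlap, from 37981 to 51894 TPM. The summed level of the 9 markers ran from 170.6 to 231.4 TPM in females on the normal diet and from 310.7 to 483.2 TPM on the high fat diet. In males it ran from 141.6 to 249.4 TPM and from 134.9 to 293.1 TPM. Their part in the results was not tested. Csf1r and Folr2 share exon sequence with genes on the opposite strand, Hmgxb3 and Gm10602, in the annotation GENCODE M21, and whether the counting used strand is not given in the sources used here.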

How the data were processed

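Poly(A) RNA from powdered whole liver was made into NEBNext Ultra libraries and sequenced on a NovaSeq instrument, per the labels' protocols. The submitters' processing notes name STAR, RSEM and the build GRCm39; versions are not given in the sources used here. The authors deposited expected counts (RSEM estimates, of which 4.89% of entries were not whole) and TPM, in which each gene is scaled for its length and each library to the same total. Counts were rounded and filtered with filterByExpr of edgeR 4.0.16 (R 4.3.3), which left 14781 genes, and scaled by TMM. A quasi-likelihood model with 1 mean per group, tested on simulated data, gave 5 two-sided contrasts. Genes were called at a Benjamini-Hochberg adjusted p under 0.05 over all tested genes. Symbols came from a supplied table by identifier, which named 51487 genes. Standard errors are the size of the log2 fold change over the square root of F. Ratios of TPM were compared by exact permutation tests. Alternatives used DESeq2 1.42.0, limma 3.58.1 on log2(TPM + 1) or log2(TPM + 0.1), other scaling or filters, and libraries left out; leaving both close male libraries out was chosen after seeing the data. The 9 members, the other lists and the rule for named genes (members, called genes of the lists with the smallest p, and the 10 genes most like the members) were chosen with earlier results of these data known, so no list is independent support.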

Additional observations from a re-analysis of the deposited data

Results flagged for a closer look

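Marco, a scavenger receptor, measured 43.3 CPM in replicate 2 of males on the normal diet, while the other libraries of that group were between 4.49 and 8.94 CPM. The gap to the nearest library took 0.885 of the group's range, above Dixon's 95% critical value for 4 samples. The same library was the highest of its group for 7 of the 9 members. In all 44 groups of 4 values were examined, and chance marks about 1 in 20 of them. Without this library the log2 fold change of Marco with the high fat diet in males was 0.96 in place of -0.39.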

How the results depend on the processing

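The 5 counts of called members were recomputed under other settings. For diet in females the count of 2 was 5 in DESeq2, 5 in limma on log2(TPM + 1) and on log2(TPM + 0.1), 5 with only the groups compared, 1 with no filter on low counts, and between 0 and 3 with a replicate left out. The share of all tested genes called there moved as well, from 4.19% with no filter to 19.8% in limma on log2(TPM + 1). For diet in males the count of 0 was 1 (Clec4f, adjusted p = 0.0428 in edgeR) with high fat diet replicates 2 and 3 both left out, and between 0 and 1 with 1 replicate left out, as was the interaction. On the normal diet the sex count of 0 was 2 with only the groups compared, where 19.3% of all tested genes were called. On the high fat diet the count of 6 was 3 with only the groups compared, 3 with male replicates 2 and 3 averaged, 2 with both left out, and between 3 and 7 with a replicate left out. The log2 ratio of Timd4 to Clec4f by diet was -0.59 in males with replicates 2 and 3 averaged. With a replicate left out it ran from 0.089 to 0.28 in females and from -0.74 to -0.52 in males, where 3 against 4 libraries cannot give an exact permutation p below 0.0286; in males the p was 0.0571 without any 1 of the high fat libraries. The cause of these changes was not tested, beyond the fewer libraries.

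Some uncalled changes turned their sign. With both close male libraries left out, the interaction became -0.020 for Clec4f, -0.14 for Folr2 and -0.031 for Vsig4, and the male diet change became 0.095 for Cd163 and 0.25 for Marco. On log2(TPM + 1) and log2(TPM + 0.1) the male diet change of Marco was 0.047 and 0.083. With a replicate left out, the male diet change ran from -0.17 to 0.30 for Cd5l, -0.086 to 0.29 for Clec4f, -0.037 to 0.17 for Csf1r, -0.16 to 0.32 for Folr2, -0.98 to 0.96 for Marco and -0.14 to 0.20 for Vsig4. The interaction of Cd163 ran from -0.61 to 0.043, and the sex difference on the normal diet from -0.033 to 0.28 for Cd5l, -0.14 to 0.063 for Csf1r and -1.34 to 0.32 for Marco. TPM moved the median of all genes by 0.15 for diet in females and by 0.10 for sex on the high fat diet at a pseudocount of 1.

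Replicate numbers are shared by the groups, and 24 correlations of same-numbered deviations ran from -0.16 to 0.18. They were not set against different-numbered libraries, so whether the numbers pair the samples was not tested. With the replicate number as a block, 12.6% of all tested genes were called for diet in females and 23.3% for sex on the high fat diet. Without it the shares were 11.5% and 20.4%. With the block, the counts of called members were 2 for diet in females (Adgre1 and Csf1r, with Cd5l lost) and 6 for sex on the high fat diet (Vsig4 lost and Adgre1 gained). Depth was at least 106 counts per member and library. How far counting noise and the spread between 4 libraries each limit precision was not tested.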

Other observations

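C6, a complement gene on the list of Kupffer identity genes that hepatocytes also express, was far lower in females than in males, with means of 21.4 against 467 CPM on the normal diet (log2 difference -4.45 ± 0.37, SE, edgeR adjusted p = 1.76e-06) and 26.3 against 306 CPM on the high fat diet (-3.54 ± 0.35, SE, edgeR adjusted p = 1.02e-05). The lectin Fcna, which opsonises microbes, was higher in females on both diets, with means of 40.7 against 28.8 CPM on the normal diet (0.50 ± 0.15, SE, edgeR adjusted p = 0.0338) and 41.6 against 27.2 CPM on the high fat diet (0.61 ± 0.15, SE, edgeR adjusted p = 0.00938). Nr1h3, which encodes the oxysterol receptor LXR-alpha, was higher in females on the normal diet (0.35 ± 0.09, SE, edgeR adjusted p = 0.0182), and the iron exporter Slc40a1 on the high fat diet (0.48 ± 0.11, SE, edgeR adjusted p = 0.00606). The normal diet calls of both Fcna and Nr1h3 were lost without female replicate 1 or 2 or male replicate 3 or 4, and that of Fcna also without female replicate 3 or male replicate 2. On the high fat diet Fcna was not called with male replicates 2 and 3 both left out, while C6 on both diets and Slc40a1 on the high fat diet were called in every alternative run.

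Gata6, a regulator of peritoneal cavity macrophages, was lower on the high fat diet in both sexes, from 9.22 to 5.64 CPM in females (-0.71 ± 0.14, SE, edgeR adjusted p = 0.00395) and from 7.93 to 5.34 CPM in males (-0.57 ± 0.14, SE, edgeR adjusted p = 0.014). Cd207, a marker of macrophages of the liver capsule, was also lower in males (-1.08 ± 0.31, SE, edgeR adjusted p = 0.0314). In females its change was -0.71 ± 0.31 (SE, edgeR adjusted p = 0.144). Of the 4 listed markers of capsular and peritoneal macrophages 3 were tested. The other tested one, Icam2, was not called for diet in either sex. Its change was 0.11 ± 0.27 in females (SE, edgeR adjusted p = 0.823) and -0.10 in males. In males Gata6 was not called on log2(TPM + 1), on log2(TPM + 0.1) or with high fat diet replicates 2 and 3 both left out, and in females it was not called on log2(TPM + 0.1). The call of Cd207 in males held in 8 of 17 alternatives. It was lost on log2(TPM + 1), with only the groups compared, with high fat diet replicates 2 and 3 averaged or both left out, and without normal diet replicate 2 or 4 or high fat diet replicate 2, 3 or 4.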
